A study of Mus with 3 samples.

Results

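Lung endothelial cells were examined in 3 single-cell RNA libraries of whole mouse lung. They were selected on their own counts: each cell held at least 1 UMI (unique molecule) of Cdh5 and at least 1 over Egfl7, Cldn5 and Pecam1, none of Ptprc or Col1a1, and under 2% of its UMIs from Sftpc. Of 14441 kept cells, 62 met this rule. They numbered 17 in DJ-1 KO OVA, 30 in WT OVA and 15 in WT PBS. The mice of all groups were female and 6 to 12 weeks old. DJ-1 KO OVA mice lacked DJ-1, a redox-sensitive protein encoded by Park7, and had been challenged with OVA (ovalbumin, a common model allergen). WT OVA mice were wild type and OVA challenged, and WT PBS mice were wild type and PBS challenged. The WT PBS library carries OVA in its title but PBS as its treatment, and the group follows the treatment. The labels name neither the strain nor the kind of knockout, and no DJ-1 KO mice without OVA were in the series. Cells of 3 mice were pooled into 1 library per group, so differences between groups could not be tested against replicates.

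Endothelial cells line blood and lymphatic vessels. Cdh5 encodes VE-cadherin, the adhesion protein of their junctions, Cldn5 a tight junction protein, Pecam1 an adhesion molecule that some leukocytes also carry, and Egfl7 a secreted endothelial factor. In the lung, lymphatic vessels drain fluid and carry leukocytes to lymph nodes, with Prox1 as the transcription factor of lymphatic identity and Mmrn1 as a secreted lymphatic marker. Blood vessels comprise arteries, veins and 2 capillary types, of which aerocytes are specialised for gas exchange and general capillary cells also act as progenitors.

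The label was met by the markers of endothelium in general, but 43 of the 62 cells also carried the lymphatic markers. All 22 genes of the pan-endothelial list and all 10 of the lymphatic list were detected in every library. The 18 pan-endothelial genes that the rule did not use summed to 7786 CPM (UMIs scaled to the summed UMIs of the cells) in DJ-1 KO OVA, 7172 CPM in WT OVA and 8743 CPM in WT PBS, against 263, 265 and 241 CPM in all other kept cells of the same libraries in that order. No endothelial cell held a UMI of Pdgfra or Col1a2 of fibroblasts, Pdgfrb of pericytes, Msln of mesothelium, Cd3e of T cells, Cd79a of B cells, Adgre1 of macrophages or Csf3r of neutrophils. Over whole lists some UMIs of other cell types were present. In DJ-1 KO OVA, WT OVA and WT PBS the macrophage list summed to 17, 16 and 6 UMIs, the B cell list to 4, 20 and 14 (all Ebf1), the neutrophil list to 0, 6 and 11, and the T cell list to 1, 4 and 1. The pericyte and smooth muscle list summed to 2, 5 and 9 UMIs, the alveolar type 2 list to 16, 63 and 38, and the pan-leukocyte list to 2, 28 and 1 in the same order. Of the 28 pan-leukocyte UMIs in WT OVA, 25 lay in 3 cells without the lymphatic markers. The highest cell stood at 5408 CPM, near the median of 6138 CPM in all other kept cells of WT OVA. In WT OVA 1 cell without the lymphatic markers held 3 T cell list UMIs, of Cd3d, Cd2 and Lck. Whether these cells were mixed with leukocytes was not tested. Club cell Scgb1a1 was found in 15 of 17, 25 of 30 and 14 of 15 endothelial cells of DJ-1 KO OVA, WT OVA and WT PBS. It was also found in 89.7%, 83.8% and 83.3% of B cells of those libraries, which should lack it, so it is read as background RNA. The B cells had median depths of 1240.0, 1397 and 3083.5 UMIs in the same order. Doublets were not removed from them, and a WT OVA B cell reached 569810 CPM over the airway epithelial list. They are therefore not a clean gauge of background.

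Cells just inside and outside the selection are described without a test. Among the selected cells, 18 held a single Cdh5 UMI, 3 in DJ-1 KO OVA, 13 in WT OVA and 2 in WT PBS, and their median depth was 1634 UMIs against 3467.5 in the other 44. Outside the rule, 28 cells lacked Cdh5 but held at least 3 UMIs over Egfl7, Cldn5 and Pecam1, 7 in DJ-1 KO OVA, 13 in WT OVA and 8 in WT PBS. Another 29 cells met the endothelial conditions but held Ptprc, the leukocyte gene CD45, and their median depth was 10346 UMIs. At least 2 UMIs over Prox1 and Mmrn1 were held by 11 of those 28 cells and 4 of those 29, against 43 of the 62 selected cells. Both sets count among all other kept cells. Of 372 barcodes that occurred in both DJ-1 KO OVA and WT PBS, 0 belonged to an endothelial cell.

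Endothelial cells were rare in all 3 libraries. They made up 0.383% (0.223 to 0.612) of kept cells in DJ-1 KO OVA, 0.492% (0.332 to 0.702) in WT OVA and 0.384% (0.215 to 0.632) in WT PBS. Brackets hold 95% intervals, Clopper-Pearson for shares, exact Poisson for CPM and exact conditional binomial for CPM ratios. They cover counting error only, since UMIs and cells of a pool are not replicates. The intervals of the 3 libraries overlap. Their median depth was 2094 UMIs (626 to 7523 over cells) in DJ-1 KO OVA, 2449.5 (514 to 16852) in WT OVA and 3828 (1085 to 16891) in WT PBS. The summed UMIs of endothelial cells were 48932, 94955 and 80861 in that order. A limit of 3 UMIs, set for a count of 0, thus stands for 61.3, 31.6 and 37.1 CPM. It lies below the upper end of the 95% Poisson interval at 0 UMIs.

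Park7, the gene that the knockout targets (chr4:150897133-150909921, GRCm38.p6), had 0 UMIs in the 17 endothelial cells of DJ-1 KO OVA, 9 UMIs in 6 of 30 cells of WT OVA and 10 UMIs in 6 of 15 cells of WT PBS. The limit set for 0 UMIs is 61.3 CPM in DJ-1 KO OVA, which is lower than the upper end of a Poisson interval. Park7 stood at 94.8 CPM (43.3 to 179.9) in WT OVA and 124 CPM (59.3 to 227) in WT PBS. In endothelial cells alone the counts are too low to size the difference. In all other kept cells Park7 stood at 20.9 CPM in DJ-1 KO OVA against 101 CPM in WT OVA, a ratio of 0.207 (0.184 to 0.231).

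Within the cells that the rule selected, lymphatic cells were the main component. Counting cells with at least 2 UMIs over Prox1 and Mmrn1, they made up 11 of 17 endothelial cells in DJ-1 KO OVA (64.7%, 38.3 to 85.8), 22 of 30 in WT OVA (73.3%, 54.1 to 87.7) and 10 of 15 in WT PBS (66.7%, 38.4 to 88.2). A wide gap separated them from the rest: 18 cells held 0 UMIs of these genes, 1 cell of DJ-1 KO OVA held 1, and all others held at least 4. That 1 cell also held 13 UMIs of the lymphatic chemokine gene Ccl21a. Both Prox1 and Mmrn1 were detected in 10, 14 and 9 of the 11, 22 and 10 lymphatic cells. Cells under the threshold of 2 UMIs were 0.135% of kept cells in DJ-1 KO OVA, 0.131% in WT OVA and 0.128% in WT PBS.

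**Figure D1:**
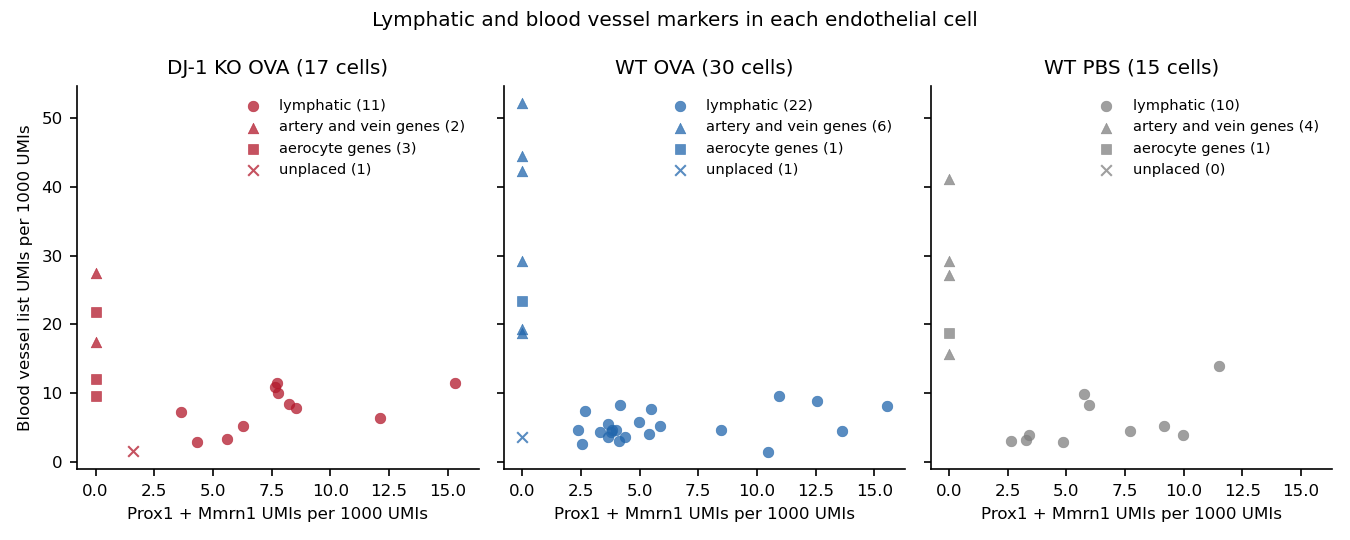
Each point is 1 endothelial cell. The x axis gives Prox1 plus Mmrn1 UMIs and the y axis UMIs of the arterial, venous, general capillary and aerocyte lists, both per 1000 UMIs of the cell, with 17, 30 and 15 cells in DJ-1 KO OVA, WT OVA and WT PBS; the 43 lymphatic cells lie apart from the cells led by blood vessel genes, which sit at 0 on the x axis.

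The genes that most set the 43 lymphatic cells apart from the other 19 were described across all libraries, with no test, since the split itself used counts of the same cells. Mmrn1, which defined the split, had 893 UMIs in lymphatic cells and 1 in the others. Ccl21a, which encodes a chemokine that draws dendritic cells and T cells to lymphatics, had 3304 UMIs in lymphatic cells and 13 in the others. Its near copies Ccl21b and Ccl21c had 0 UMIs, and reads of near-identical genes cannot be told apart, so the assignment to Ccl21a is uncertain. Reln, a secreted glycoprotein of lymphatic vessels, had 265 UMIs and 1, and Nts, the neurotensin precursor, had 469 and 0.

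Igfbp5 encodes a secreted protein that binds insulin-like growth factors (chr1:72858065-72874865). It had 1550 UMIs in 24 lymphatic cells and 8 UMIs in 2 of the other endothelial cells, which is 43.2-fold (21.9 to 100.4) higher on the CPM scale. Apold1, an endothelial immediate early gene, had 571 and 3 UMIs. Prelp (149 and 1), Fxyd6 (142 and 1), Maf (278 and 2) and Sema3d (126 and 1) completed the 10 leading genes.

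Each lymphatic marker was found in the lymphatic cells of all 3 libraries. In lymphatic cells Ccl21a stood at 15697 CPM in DJ-1 KO OVA, 17402 CPM in WT OVA and 20072 CPM in WT PBS. Prox1 stood at 1014 CPM (731 to 1371) in DJ-1 KO OVA, 883 CPM (684 to 1121) in WT OVA and 572 CPM (405 to 785) in WT PBS. Flt4, the receptor for the lymphatic growth factor VEGF-C, stood at 1594 CPM in DJ-1 KO OVA, 1647 CPM in WT OVA and 1536 CPM in WT PBS, and the intervals of the libraries overlap. Lyve1, a hyaluronan receptor of lymphatic capillaries, stood at 2077 CPM (1661 to 2565) in DJ-1 KO OVA, 1673 CPM (1395 to 1991) in WT OVA and 2786 CPM (2399 to 3217) in WT PBS, lowest in WT OVA and highest in WT PBS.

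Lymphatic cells were not uniform. Nts was found in 6 of 11 lymphatic cells of DJ-1 KO OVA, 13 of 22 from WT OVA and 5 of 10 from WT PBS, with at most 29, 59 and 59 UMIs in a cell. In the wild-type libraries Igfbp5 lay mostly in these cells, with 799 of its 815 lymphatic UMIs in WT OVA and 635 out of 719 in WT PBS. Aqp1, a water channel, was lower in cells with Nts than in cells without it, at 630.5 and 1718 CPM in DJ-1 KO OVA, 322 and 2735 CPM in WT OVA, and 449 and 2551 CPM in WT PBS. This split was chosen after the values were seen. Cells with and without Nts held 22205 and 19205 UMIs in all in DJ-1 KO OVA (6 and 5 cells), 59091 and 16822 in WT OVA (13 and 9) and 46809 and 19603 in WT PBS (5 and 5), and the part of depth was not tested.

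**Figure D2:**
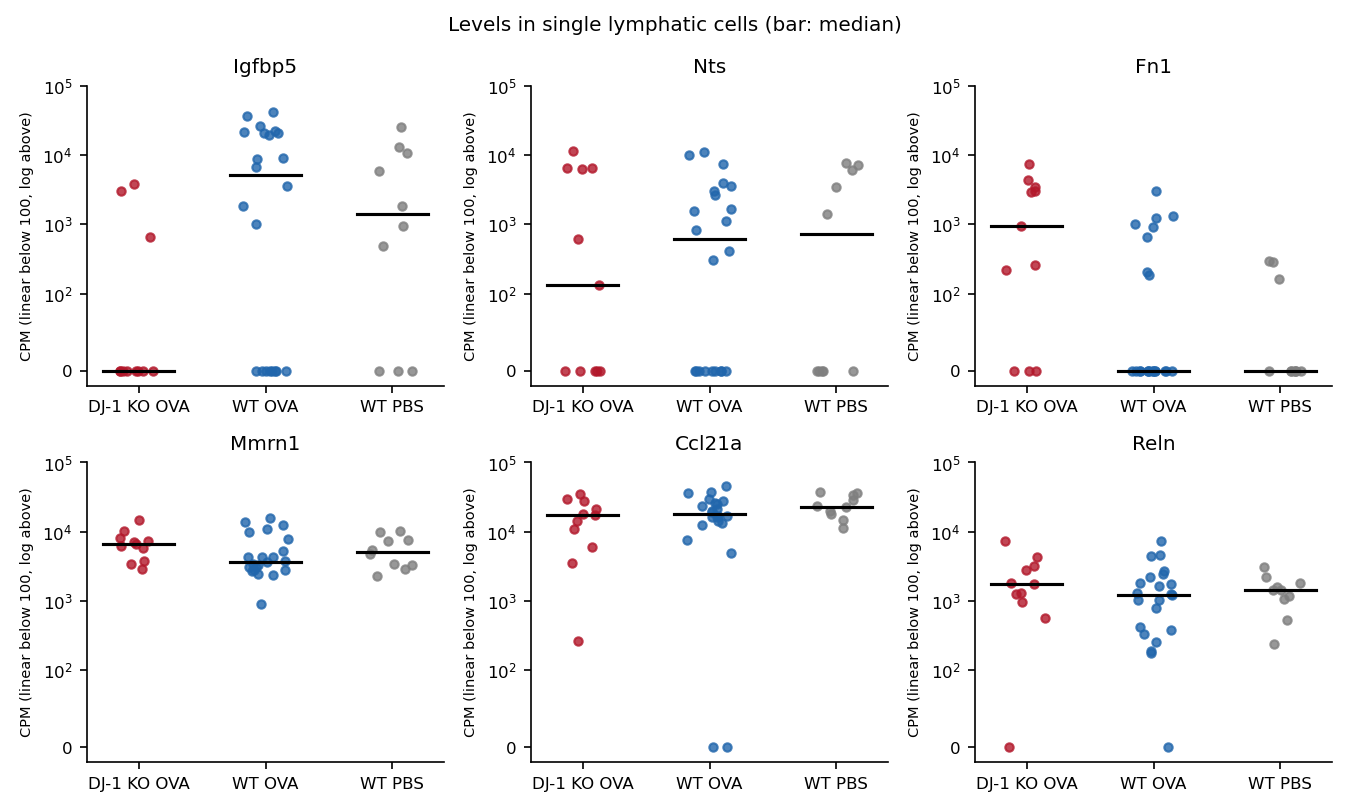
Each point is 1 lymphatic cell of DJ-1 KO OVA (11), WT OVA (22) or WT PBS (10), the bar is the median, and the y axis is the gene's CPM within that cell, linear below 100 and logarithmic above. Igfbp5 reached 3820 CPM at most in DJ-1 KO OVA, 41489 CPM in WT OVA and 25990.2 CPM in WT PBS, while Mmrn1 was found in all 43 lymphatic cells.

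In summed UMIs, cells under the lymphatic threshold were led mostly by artery and vein genes. Each was placed by the blood vessel list with most UMIs, at least 8, a limit set after the counts were seen. The arterial and venous lists, 13 genes each, were taken as 1 sum, against 10 aerocyte and 8 general capillary genes. The summed lists thus had more genes to draw on, and lymphatic cells also held 3 to 51 of their UMIs each. By this placing, 2 cells from DJ-1 KO OVA, 6 from WT OVA and 4 from WT PBS were led by the artery and vein lists. The aerocyte list led 3, 1 and 1 cells, and 1, 1 and 0 cells stayed unplaced. No cell was led by the general capillary list, though a cell led by artery and vein genes held 17 of its UMIs. Vwf, the clotting factor stored in endothelium, had 16 UMIs in DJ-1 KO OVA, 104 in WT OVA and 99 in WT PBS. Mgp, a matrix protein of arteries, had 31, 178 and 22 UMIs. Since 14.1%, 15.1% and 13.6% of B cells, not cleared of doublets, also held it, single Mgp UMIs may be background.

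The arterial and venous lists overlapped in part of the cells led by them. At least 8 UMIs of both lists were found in 1 of the 2 such cells of DJ-1 KO OVA, 5 of 6 from WT OVA and 2 of 4 from WT PBS. Slc6a2, a noradrenaline transporter of pulmonary veins, had 4 UMIs in 1 cell of DJ-1 KO OVA, 0 in WT OVA and 23 in 3 cells of WT PBS. Gja5, an arterial connexin, had 1 UMI in DJ-1 KO OVA, 13 in WT OVA and 1 in WT PBS. No cell held both Slc6a2 and Gja5. In the WT OVA cells with Gja5, Vwf and Vcam1 held 29 and 5 of 36 venous list UMIs, and 15 and 56 of 76. Each of the 5 cells led by aerocyte genes held Car4, a membrane carbonic anhydrase, and Kdr, the main VEGF receptor, with up to 8 and 20 UMIs. Ednrb, the endothelin receptor B and another aerocyte gene, had 27, 25 and 19 UMIs over all endothelial cells of DJ-1 KO OVA, WT OVA and WT PBS, but lymphatic cells held 24 and 21 of them in the OVA libraries. The general capillary list summed to 51, 63 and 67 UMIs in DJ-1 KO OVA, WT OVA and WT PBS, of which lymphatic cells held 45, 40 and 33. Most UMIs of the list were of Plvap (24, 20 and 24 UMIs), a protein of endothelial diaphragms, and Cd93 (8, 22 and 31). Among its other members, Gpihbp1, which anchors lipoprotein lipase, had 3, 3 and 8 UMIs in DJ-1 KO OVA, WT OVA and WT PBS. Aplnr, the apelin receptor, had 0, 0 and 1, and Glp1r had none.

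Knockout and wild-type endothelium were next compared under the same challenge. Among genes with at least 100 UMIs whose endothelial level was at least that of other kept cells, the most marked difference was Igfbp5, 22.1-fold lower in DJ-1 KO OVA. Vcam1, Ppp1r15a and Vwf came next at the low end, and Fn1 and Reln were at the high end. Of 853 genes with at least 30 UMIs over both libraries, 58 were at least 2-fold higher (6.8%) and 88 at least 2-fold lower (10.3%) in DJ-1 KO OVA. Among lymphatic cells alone it was 41 (6.03%) and 63 (9.26%) of 680 genes. The median log2 ratio over all genes was -0.04. With TMM scaling it was -0.21, and 24.7% of the genes past 2-fold were then higher, against 39.7% with scaling to total UMIs.

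Igfbp5 had 19 UMIs in endothelial cells of DJ-1 KO OVA, 815 in WT OVA and 724 in WT PBS. These are 388 CPM (234 to 606) in DJ-1 KO OVA, 8583 CPM (8004 to 9193) in WT OVA and 8954 CPM (8313 to 9630) in WT PBS, so the DJ-1 KO OVA library was low against both wild-type libraries. Without the cell that held most of them in each library, it stood at 235 CPM in DJ-1 KO OVA, 6905 CPM in WT OVA and 4455 CPM in WT PBS. The ratio between the OVA libraries was 0.0452 (0.0271 to 0.0711), a log2 ratio of -4.47. In lymphatic cells alone the log2 ratio was -4.80.

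Igfbp5 was detected in 3 of 11 lymphatic cells of DJ-1 KO OVA, 14 of 22 from WT OVA and 7 of 10 from WT PBS. It was also detected in 2.70%, 1.40% and 2.07% of the B cells of those libraries. The highest single cell held 8 UMIs in DJ-1 KO OVA, 196 in WT OVA and 439 of the 724 UMIs in WT PBS, the last being the deepest cell of that library. At least 50 UMIs were found in 0, 8 and 3 lymphatic cells in the same order, so none of the 11 lymphatic cells of DJ-1 KO OVA reached the level of the high wild-type cells. Among cells that held Nts, Igfbp5 stood at 721 CPM in the 6 cells of DJ-1 KO OVA, 13522 CPM in the 13 from WT OVA and 13566 CPM in the 5 from WT PBS.

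In fibroblasts, which also express it, Igfbp5 was not lower in DJ-1 KO OVA and stood at 4578 CPM in DJ-1 KO OVA against 3410.5 CPM in WT OVA, a ratio of 1.34. The fibroblast list summed to 7, 11 and 1 UMIs in endothelial cells of DJ-1 KO OVA, WT OVA and WT PBS, and its part in Igfbp5 and Fn1 was not tested. With 11 and 22 lymphatic cells of 3 pooled mice each, variation between mice cannot be told apart from genotype.

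Fn1, which encodes the matrix protein fibronectin (chr1:71585473-71653280), had 108 UMIs in endothelial cells of DJ-1 KO OVA, 71 in WT OVA and 11 in WT PBS. It stood at 2207 CPM (1811 to 2665) in DJ-1 KO OVA, 748 CPM (584 to 943) in WT OVA and 136 CPM (67.9 to 243) in WT PBS, in an order with no overlap of intervals. The ratio between the OVA libraries was 2.95 (2.17 to 4.04). A single WT OVA cell held 52 of the 71 UMIs, and without the highest cell of each library the ratio was 7.42. Thinned to 1000 UMIs per cell, the log2 ratio was 0.86. Fn1 was also higher in all other kept cells, at 577 CPM in DJ-1 KO OVA against 329 CPM in WT OVA, a ratio of 1.75 (1.70 to 1.81).

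Other genes at the high end were of several kinds. Reln had 91 UMIs in DJ-1 KO OVA against 77 in WT OVA, which made it 2.29-fold (1.67 to 3.15) higher. Thinned to 1000 UMIs per cell, which left out the shallower cells as above, its log2 ratio was 0.13, against 1.20 unthinned. Elk3, an endothelial transcription factor, was 2.23-fold higher, with a log2 ratio of 0.26 thinned and 1.16 unthinned, and Kdr 2.09-fold (1.51 to 2.90). Kdr was 1.24-fold (0.841 to 1.81) higher in lymphatic cells alone, where the interval includes 1. Hspa5 was 1.86-fold higher, and Hsp90ab1 and Sepp1 1.83-fold. Hspa5 and Hsp90ab1, which encode chaperones, were 2.04 and 1.65-fold higher in all other kept cells too, whereas Sepp1, the selenoprotein P gene, stood at 0.545 of WT OVA there.

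At the low end stood stress-response and vessel wall genes. Ppp1r15a, which encodes GADD34, a phosphatase subunit of the stress response, had 10 UMIs in DJ-1 KO OVA against 117 in WT OVA. Its ratio was 0.166 in all endothelial cells, 0.181 in lymphatic cells alone and 1.11 in all other kept cells. Without the Sftpc, Ptprc and Col1a1 conditions of the rule its log2 ratio was -0.48, against -2.59 with them. Zfp36, an mRNA decay factor, had 43 and 197 UMIs, a ratio of 0.424 (0.297 to 0.592), against 0.982 in all other kept cells. Zfp36l1 stood at 0.397, Tm4sf1 at 0.385 and Cst3 at 0.370.

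Vcam1 and Vwf were set by few cells. Vcam1, the adhesion receptor for eosinophils and lymphocytes (chr3:116110020-116129688), had 7 UMIs in 2 cells of DJ-1 KO OVA and 120 in 7 cells of WT OVA, of which 1 cell held 56 and another 51. Its ratio was 0.113 (0.0446 to 0.240). Lymphatic cells held 0 and 4 of these UMIs, and most of the rest lay in the 2 and 6 cells led by artery and vein genes. Vwf had 16 and 104 UMIs, a ratio of 0.299 (0.165 to 0.508), and lymphatic cells held 4 and 0 of them.

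**Figure D3:**
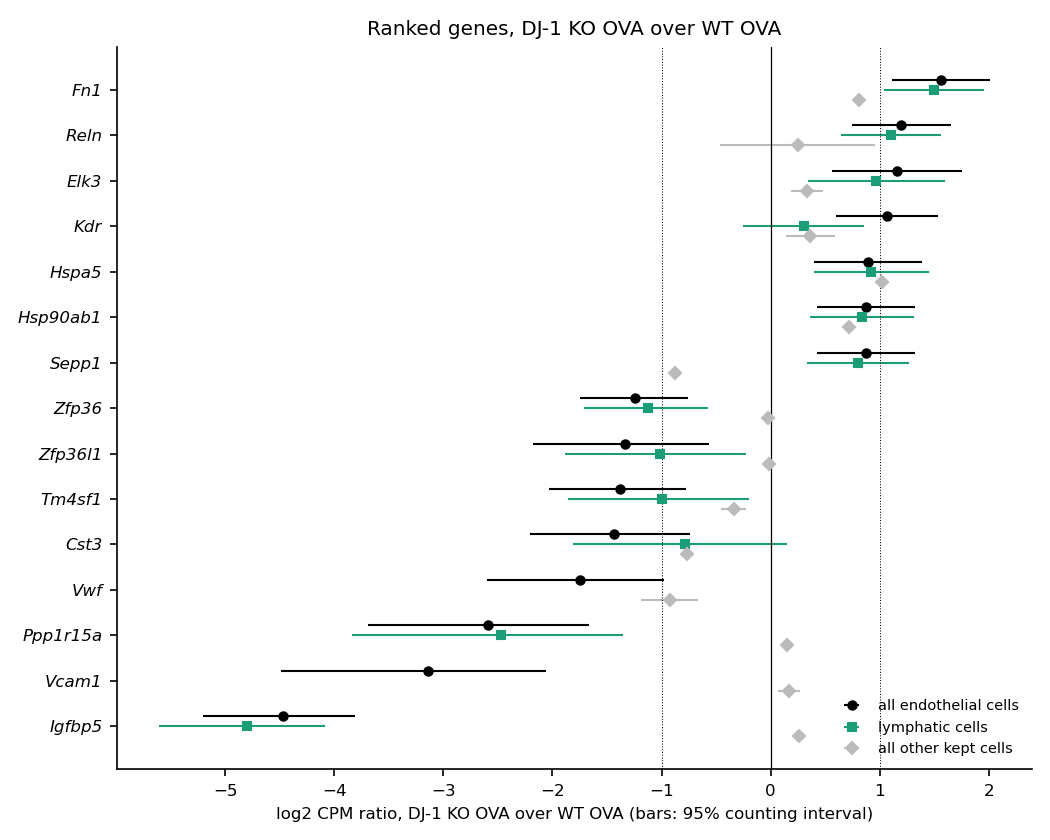
Log2 CPM ratio, DJ-1 KO OVA over WT OVA, of 7 of the 8 highest and of the 8 lowest of 102 ranked genes, in all endothelial cells (circles), lymphatic cells (squares) and all other kept cells (diamonds); bars are 95% counting intervals and dotted lines mark 2-fold. Igfbp5 lies at -4.47 in endothelial cells and at 0.26 in all other kept cells. Vcam1 has no square because lymphatic cells of DJ-1 KO OVA held none of its UMIs, and Vwf because those of WT OVA held none.

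Immediate early genes, which many stimuli including tissue dissociation induce within minutes, stood lower in the knockout library. Of 16 listed genes with at least 30 UMIs, 5 were at least 2-fold lower (Fosb, Atf3, Zfp36, Btg2 and Nr4a1) and 0 higher, against 10.3% lower over all genes. The list median was -0.64 on the log2 scale, against -0.04 over all genes and -0.30 for the same list in all other kept cells. Atf3, a stress-induced transcription factor, had 6 UMIs in DJ-1 KO OVA against 75 in WT OVA, a ratio of 0.155 (0.0552 to 0.354). Fosb had 12 and 82 UMIs, a ratio of 0.284 (0.141 to 0.523), whereas Fos, with 69 and 166, stood at 0.807 (0.600 to 1.07). In lymphatic cells 4 of 15 were at least 2-fold lower, with a median of -0.77, against 9.26% and -0.06 over all genes there. The median depth in DJ-1 KO OVA and WT OVA was 2094 and 2449.5 UMIs over all endothelial cells and 3843 and 2776 over lymphatic cells, and its part was not tested.

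Vessel wall and signalling lists differed in single members. Of 8 basement membrane genes 3 were at least 2-fold higher in DJ-1 KO OVA (Hspg2, Nid1 and Fn1), against 6.8% over all genes. Hspg2, which encodes perlecan, had 25 and 19 UMIs in DJ-1 KO OVA and WT OVA, a ratio of 2.55 (1.35 to 4.90), and Nid1, which encodes nidogen, had 19 and 14, a ratio of 2.63 (1.25 to 5.68). In all other kept cells their ratios were 0.987 and 0.797. Against the same 6.8% higher and 10.3% lower over all genes, of 4 scavenger receptors 2 were higher (Mrc1 and Cd36), of 7 vascular tone genes 2 (Ednrb and the endothelin gene Edn1), and of 7 haemostasis genes 1 was lower (Vwf). Edn1 had 25 and 8 UMIs, a ratio of 6.06 (2.65 to 15.6), and stood at 2.60 in all other kept cells.

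Several lists showed members past 2-fold in both directions, and their counts are to be read against 6.8% higher and 10.3% lower over all genes. Of 16 pan-endothelial genes 1 was higher (Kdr) and 3 lower (Eng, Mmrn2 and Ptprb). In lymphatic cells alone 0 of 14 were higher and 2 lower (Eng and Mmrn2), against 6.03% and 9.26% over all genes there. Of 7 BMP and TGF-beta genes Bmpr2 was higher and Eng and Id3 lower. Of 7 NF-kB genes Lrg1 was higher and Nfkbiz, Icam1 and Irf1 lower. Of the 10 lymphatic genes Reln was higher and Tbx1 and Fxyd6 lower. No member was past 2-fold among 7 MHC class I genes, 4 heat shock genes, 4 antioxidant genes, 10 endothelial transcription factors or 2 Notch genes.

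Endothelium of wild-type mice was then compared between OVA and PBS challenge. Vcam1, the NF-kB inhibitor gene Nfkbia and the MHC class I gene H2-K1 were higher in WT OVA, and Ubb, Prss23 and Btg2 were lower. Of 1062 genes with at least 30 UMIs, 61 were at least 2-fold higher (5.74%) and 57 at least 2-fold lower (5.37%) in WT OVA. In lymphatic cells alone it was 46 (5.57%) and 43 (5.21%) of 826 genes. The median log2 ratio over all genes was 0.02. Both comparisons share the WT OVA library, so a high or low value there enters both.

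MHC class I genes, whose products present peptides to CD8 T cells, stood higher in WT OVA. In lymphatic cells 3 of 5 were at least 2-fold higher (H2-K1, B2m and Tapbp), against 5.57% over all genes, and the list median was 1.03. In all endothelial cells 2 of 6 were past 2-fold (H2-K1 and Tap2) with a median of 0.78, and in all other kept cells the median of the same genes was 0.02. H2-K1 (chr17:33996012-34000619) stood at 2845 CPM (2479 to 3251) in lymphatic cells of WT OVA and 1009 CPM (782 to 1281) in those of WT PBS, a ratio of 2.82 (2.14 to 3.77), against 1.29 in all other kept cells. In lymphatic cells of DJ-1 KO OVA it stood at 2415 CPM (1965 to 2937), near WT OVA.

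B2m, the light chain shared by all MHC class I molecules, stood at 2253 CPM (1928 to 2617) in lymphatic cells of WT OVA and 964 CPM (742 to 1231) in those of WT PBS, a ratio of 2.34 (1.74 to 3.17). In all other kept cells its ratio was 0.939. Lymphatic cells of DJ-1 KO OVA were highest, at 3284 CPM (2755 to 3885). The deepest lymphatic cell of WT OVA held 58 of the 171 B2m UMIs, and without the deepest cell of each library the lymphatic ratio was 1.55 for B2m and 2.09 for H2-K1. For H2-K1 this cell held 74 of 263 UMIs, and without the deepest cell of each library its log2 ratio in all endothelial cells was 0.63, against 1.03 with them. In endothelial cells outside the lymphatic ones that log2 ratio was -0.27.

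Immune and adhesion lists had a few members past 2-fold, against 5.74% higher and 5.37% lower over all genes. Of 6 interferon response genes 2 were higher (Irf1 and Gbp2) and 1 lower (Ly6a). Of 8 NF-kB genes 2 were higher (Nfkbia and Irf1) and 1 lower (Socs3). Vcam1 had 120 UMIs in WT OVA and 12 in WT PBS, 8.52-fold (4.70 to 16.9) higher. It was the only gene past 2-fold among 8 leukocyte adhesion genes, against 5.74% higher over all genes. As above, lymphatic cells held few of its UMIs, 4 and 0. Sele, the E-selectin gene, had 0 UMIs in DJ-1 KO OVA, 23 in WT OVA and 0 in WT PBS, and Ptgs2, the cyclooxygenase-2 gene, had 28 UMIs in 1 WT OVA cell that also held 51 of Vcam1 and 10 of Sele. Nfkbia had 140 UMIs in WT OVA and 49 in WT PBS, 2.43-fold (1.75 to 3.44) higher, and 2.57-fold in lymphatic cells. Gbp2, an interferon-induced GTPase, had 54 and 6 UMIs, but 1 WT OVA cell held 40 of the 54.

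Fn1 was 5.50-fold (2.89 to 11.5) higher in WT OVA than in WT PBS, and 2.59-fold without the highest cell of each library. Tm4sf1, an endothelial surface protein, was 2.14-fold higher in all endothelial cells. Socs3, a feedback inhibitor of cytokine signalling, had 9 UMIs in WT OVA and 60 in WT PBS, a ratio of 0.128 (0.0557 to 0.259), against 0.907 in all other kept cells. In DJ-1 KO OVA it had 8 UMIs. Tbx1, a transcription factor of lymphatic vessels, was 3.66-fold (1.81 to 8.17) higher with 43 and 10 UMIs, and 2.36-fold higher in all other kept cells.

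The low end held Apold1, with 184 UMIs in WT OVA and 337 in WT PBS, a ratio of 0.465, against 0.994 in all other kept cells. Ubb, a polyubiquitin gene, stood at 0.332, Prss23, a secreted protease gene, at 0.339 and Btg2, an antiproliferative immediate early gene, at 0.445. Sepp1, Dstn, Pard6g and Utrn stood at 0.457 to 0.515. Prss23 and Sepp1 were slightly higher in WT OVA in all other kept cells, at 1.16 and 1.15. Btg2 was lower in lymphatic cells, at 0.324 (0.234 to 0.444).

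**Figure D4:**
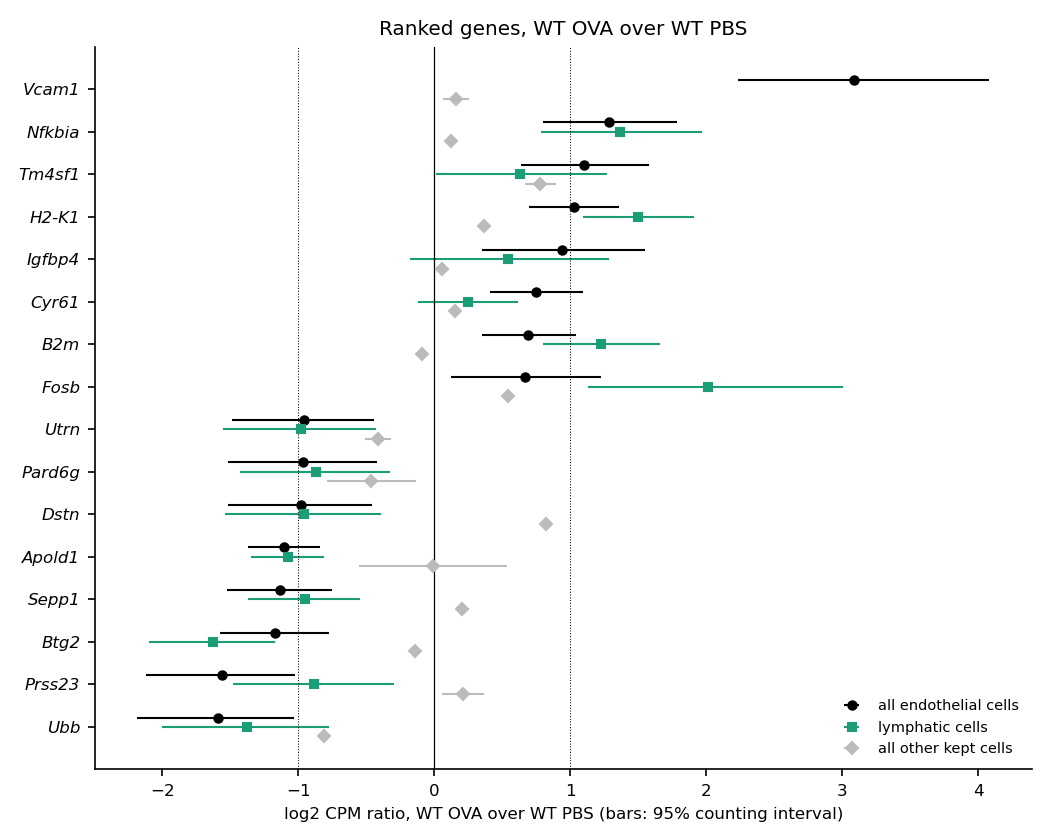
Log2 CPM ratio, WT OVA over WT PBS, of the 8 highest and 8 lowest of 154 ranked genes, in all endothelial cells (circles), lymphatic cells (squares) and all other kept cells (diamonds); bars are 95% counting intervals and dotted lines mark 2-fold. H2-K1 and B2m lie further right in lymphatic cells than in all endothelial cells. Vcam1 has no square because lymphatic cells of WT PBS held none of its UMIs.

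Immediate early genes did not share a direction in this comparison. Of 16, 0 were at least 2-fold higher and 1 lower (Btg2), against 5.74% higher and 5.37% lower over all genes, with a list median of -0.17, against 0.38 in all other kept cells. In lymphatic cells 1 of 15 was higher (Fosb) and 3 were lower (Egr1, Btg2 and Klf6), against 5.57% and 5.21% over all genes, with a median of -0.35. Fos stood at 0.637 (0.518 to 0.782) in endothelial cells and 1.28 in all other kept cells, and Egr1 at 0.582 (0.475 to 0.712) and 1.15. Fosb was 4.04-fold (2.19 to 8.02) higher in lymphatic cells. The WT OVA cells were shallower than those of WT PBS, and the part of depth was not tested.

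**Figure D5:**
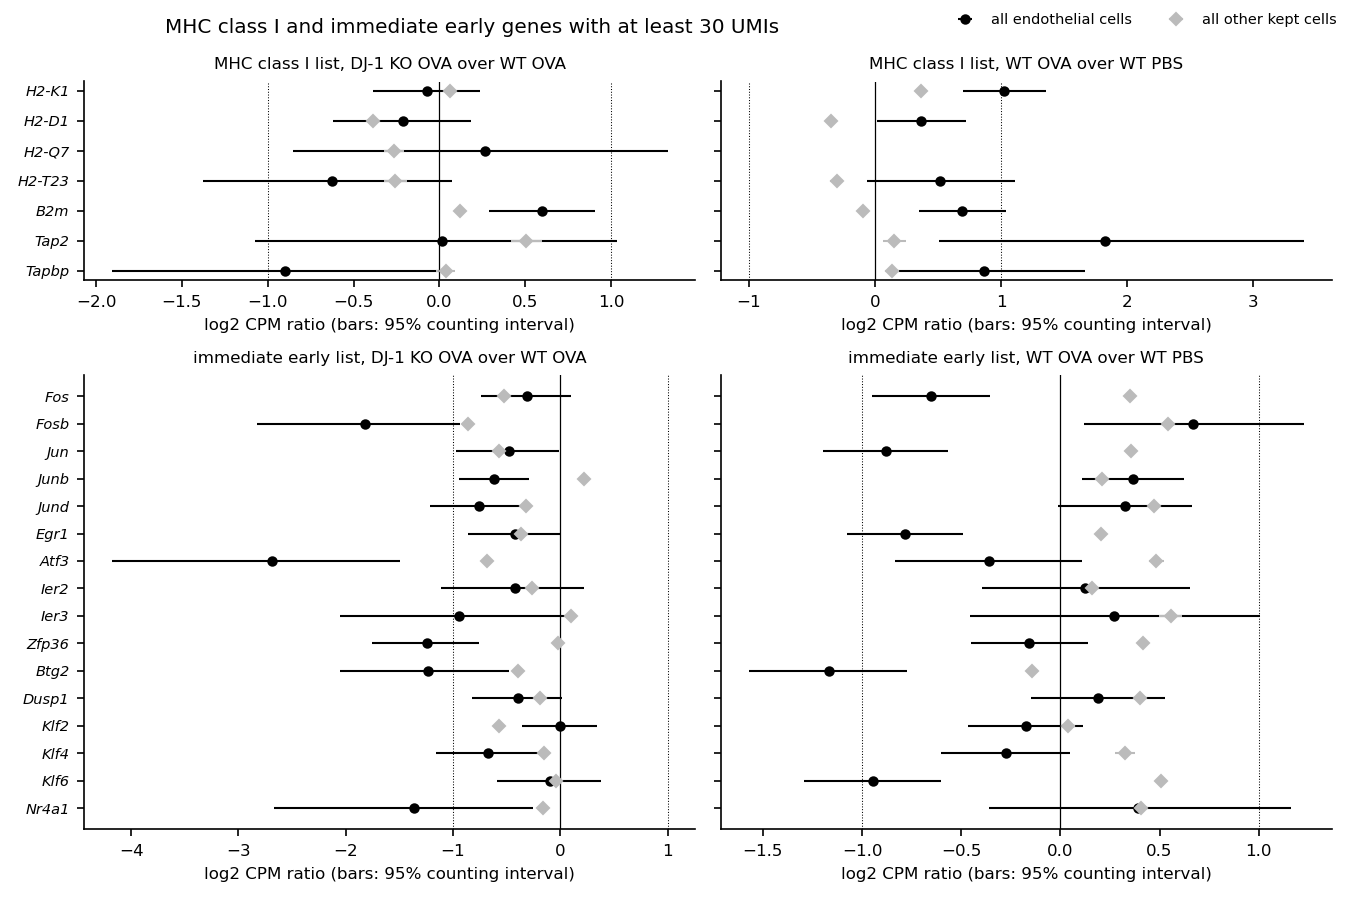
Log2 CPM ratios of MHC class I genes (top) and immediate early genes (bottom) with at least 30 UMIs, left for DJ-1 KO OVA against WT OVA, right for WT OVA against WT PBS, in all endothelial cells (black) and all other kept cells (grey); bars are 95% counting intervals and dotted lines mark 2-fold. Black points of the MHC class I list lie right of 0 for WT OVA over WT PBS, and those of the immediate early list lie mostly left of 0 in the knockout panel.

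Other programmes were near the limit of detection. Among 18 chemokine and cytokine genes Ccl21a alone reached 30 UMIs, while the alarmin gene Il33 had 0, 7 and 7 UMIs in DJ-1 KO OVA, WT OVA and WT PBS and the lymphocyte survival factor gene Il7 had 3, 6 and 11. Receptors for the type 2 cytokines were also sparse: Il4ra had 0, 9 and 8 UMIs, Il13ra1 had 0, 6 and 5, and Stat6, their transcription factor, had 2, 6 and 5. Of the MHC class II and cell cycle lists Hmgb2 alone reached 30 UMIs. For the receptors the counts were too low to size differences between libraries.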

How the data were processed

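Libraries came from the 10x Genomics Chromium 3′ reagents of version 3, per the labels. The authors deposited raw UMI counts per gene and barcode for 3 libraries and 27998 genes, whose headers name software 3.1.0, with Cell Ranger, STAR and mm10 per the submitters' processing notes. The WT PBS library's title names an OVA challenge; its treatment label says PBS, and the group follows that label.

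From these deposited counts, cells were kept from 200 detected genes and up to 20% mitochondrial UMIs, 4441 in DJ-1 KO OVA, 6092 in WT OVA and 3908 in WT PBS, with medians of 1653, 2108.5 and 4128 UMIs. The smaller cell of each barcode found in both DJ-1 KO OVA and WT PBS was removed, 65 and 306 cells. Scrublet called 3, 162 and 58 kept cells doublets, 0 of them endothelial, and none was removed; at 0.0676% the caller may not have worked in DJ-1 KO OVA. UMIs were summed over cells per library and scaled to CPM. Genes needed 30 UMIs over both libraries. A gene counts as past the fold at a CPM ratio of at least 2 or at most 0.5. A ratio against 0 UMIs is taken against 3 UMIs per library.

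Named genes are Park7, markers, list members and, per comparison, the 8 highest and 8 lowest ratios among genes with 100 UMIs whose endothelial CPM was at least that of other kept cells, leaving out mitochondrial, ribosomal, haemoglobin, immunoglobulin and unnamed genes. For lymphatic cells the 10 leading genes are named. Aqp1 was named after its values were seen. Among the 8 highest in the knockout comparison, 1 gene is not reported here. The members and lists were chosen with earlier results of these data known. The ratio step was tested on simulated counts. Alternatives covered filters, conditions of the rule, scaling, depth and cell classes. Comparators were fibroblasts (at least 2 Col1a1 UMIs, no Ptprc) and B cells (2 of Cd79a, 1 of Cd79b, no Cd3e). Coordinates come from RefSeq GRCm38.p6. TMM factors came from edgeR 4.0.16 in R 4.3.3, and the other steps used scanpy 1.11.5, pandas 2.3.3, SciPy 1.17.1, NumPy 2.4.6, matplotlib 3.10.9 and Python 3.11.15.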

Additional observations from a re-analysis of the deposited data

Results flagged for a closer look

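For 5 of the ranked genes the endothelial cells were past 2-fold and all other kept cells lay on the other side of no difference, with both counting intervals clear of it. Genes short of 2-fold or outside the ranking were not looked through for this. With 1 library per group the difference between them was not tested. All other kept cells are a mixture whose make-up differed between libraries, and they include endothelial-like cells outside the rule. Between DJ-1 KO OVA and WT OVA the log2 ratio of Igfbp5 was -4.47 in endothelial cells and 0.26 in all other kept cells. For Vcam1 it was -3.14 and 0.17, and 2 WT OVA cells held most of the Vcam1 UMIs. For Ppp1r15a it was -2.59 and 0.15, and -0.48 in endothelial cells without the Sftpc, Ptprc and Col1a1 conditions. For WT OVA over WT PBS the log2 ratio of Prss23 was -1.56 in endothelial cells and 0.21 in all other kept cells, and that of Sepp1 was -1.13 and 0.21.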

How the results depend on the processing

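With 1 pooled library per group, 17, 30 and 15 cells, and a few cells holding much of several genes, no alternative can stand in for replicates. No paired analysis was possible because each group has 1 library. Alternatives on 2 or more Cdh5 UMIs, on leaving out the deepest cell of each library and on lymphatic cells alone were chosen after seeing the data. Counts of genes past 2-fold followed the genes compared. Thinning to 1000 UMIs changed the cells as well as the depth. It left out 2 cells in DJ-1 KO OVA, 6 in WT OVA and 0 in WT PBS. Between DJ-1 KO OVA and WT OVA, 58 higher and 88 lower became 243 and 215 without the Sftpc, Ptprc and Col1a1 conditions (28, 40 and 24 cells in DJ-1 KO OVA, WT OVA and WT PBS), 6 and 19 thinned to 1000 UMIs, 4 and 19 with at least 100 UMIs, 1155 and 941 with no minimum, and 10 and 44 without lymphatic cells. TMM scaling gave 37 higher. For WT OVA over WT PBS, 61 higher and 57 lower became 144 and 146 without those conditions, 13 and 14 thinned, 9 and 5 with at least 100 UMIs, and 1035 and 1234 with no minimum, and 25 were lower without lymphatic cells. The endothelial share was 0.630% in DJ-1 KO OVA without those conditions and 0.279% in WT OVA with at least 2 Cdh5 UMIs. The lymphatic share of WT OVA was 46.7% when both Prox1 and Mmrn1 were required.

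The Igfbp5 log2 ratio of DJ-1 KO OVA over WT OVA lay between -4.80 and -3.16 under all its alternatives, the last without those conditions. For Fn1 it lay between 0.86 (thinned) and 3.03 (without the deepest cells). For Reln it was 0.13 and for Elk3 0.26 thinned to 1000 UMIs. Of the named genes' values 11 lay on the other side of no difference, for which the cause was not tested. Among genes past 2-fold these were 0.46 for Vcam1 and 1.29 for Vwf in lymphatic cells between the OVA libraries, both from 4 UMIs or fewer and set against the limit of 3 UMIs where a library held 0, and 1.72 for Btg2 and -0.27 for H2-K1 outside lymphatic cells of WT OVA over WT PBS. Among genes short of 2-fold, Park7 was at 0.14 between the OVA libraries with cells weighted alike. DJ-1 KO OVA held no Park7 UMI, so this value rests on the limit set for a count of 0. It does not show a higher level in the knockout. In WT OVA over WT PBS, B2m was at -0.77 and Fosb at -0.89 without lymphatic cells, Fosb at -0.27 without those conditions, and, thinned, B2m was at -0.0067, Dstn at 0.32 and Igfbp4 at -0.24. Over named genes and lists 809 values stayed near their value and 132 moved.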
